A study of Homo sapiens with 6 samples.

Results

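The BCL2 family genes examined here are BCL2, BCL2L1, MCL1, BCL2L11, BBC3, PMAIP1, BAX, BAK1, BID and BAD. They are 10 of the 29810 genes in the table of mRNA levels, and each was found there by the Ensembl identifier that carries its symbol. The members were chosen by name and not by a rule on their values, although earlier results of these data were known. The mRNA-seq data came from Kasumi-1, an AML cell line that was established from a leukemia with the RUNX1-RUNX1T1 fusion, so every library carries this fusion. There were 3 control libraries and 3 libraries from cells incubated with 0.25 μM I3, an HDAC inhibitor. The labels give an incubation of 48 h for both groups, and the methods give DMSO, the solvent of I3, as the control. A legend in the study gives a longer incubation for the sequenced cells, so the time is uncertain. Kasumi-1 is a single cell line, and nothing in the labels states that the 3 libraries of a group came from separate cultures. The p-values therefore measure the spread between these libraries, which may be technical.

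BCL2 family proteins decide whether the outer membrane of the mitochondrion stays closed. The anti-apoptotic proteins BCL2, BCL-xL (from BCL2L1) and MCL1 hold back the effectors BAX and BAK (from BAK1), which otherwise form pores and release cytochrome c. BH3-only proteins such as BIM (from BCL2L11), PUMA (from BBC3), NOXA (from PMAIP1), BID and BAD sense stress and either occupy the anti-apoptotic proteins or act on the effectors. Myeloid leukemia cells commonly rely on MCL1 and BCL2 for survival, and BCL2 is the target of venetoclax. HDAC inhibitors as a class have been described to raise BH3-only genes such as BCL2L11 and BMF in some other cells. Much of the control of the family acts on the proteins, through phosphorylation, cleavage and degradation, which mRNA levels do not show.

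Levels are given as FPKM, the fragments of a gene scaled to its exon length and to the size of the library, so that genes of different length can be compared. In a bulk library, fewer cells that express a gene and less of its mRNA per cell cannot be told apart. The values imply 17500320 to 18193371 counted reads per library. Positions are those of GENCODE release 29 on GRCh38. The markers of the line were present in every library, with KIT at 198 to 225 FPKM and MPO at 7740 to 8612 FPKM, and 0 of the 9 Kasumi-1 markers had an unadjusted p under 0.05 in limma. The 3 with the smallest p were RUNX1, SPI1 and RUNX1T1, at log2 fold changes of 0.082, -0.18 and 0.093, and SPI1 had 63.2 FPKM in I3 3 against 86.7 to 95.6 FPKM in the other libraries. Of the markers of other cell types, EPCAM, an epithelial adhesion gene, stood at 28.2 to 31.6 FPKM, whereas CD3E, CD3D, KRT8 and COL1A1 did not exceed 1.09 FPKM. The summed level of the 7 markers measured was 29.8 to 31.6 FPKM in control and 29.1 to 32.0 FPKM in I3 libraries. KRT8 and COL1A1 were each at 0 in 5 of 6 libraries. Of the 6 genes used by every cell, TBP and PGK1 had the smallest p, at log2 fold changes of 0.14 and -0.087.

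The family was expressed at very unequal levels. MCL1 was the most abundant member, with a mean of 55.0 FPKM over the 6 libraries, followed by BAX with 19.9 FPKM, BID with 14.1 FPKM, BAK1 with 12.2 FPKM and PMAIP1 with 11.5 FPKM. BCL2L1, BCL2 and BCL2L11 lay close together at 6.36, 6.25 and 5.98 FPKM. BAD and BBC3 were near the floor, at 0.939 and 0.625 FPKM. Each of MCL1, BAX, PMAIP1 and BCL2L11 was above the next gene in all 6 libraries, without overlap of the 2 ranges. The ranges of the neighbours BID and BAK1, BAK1 and PMAIP1, BCL2L1 and BCL2, BCL2 and BCL2L11, and BAD and BBC3 overlapped, although BID exceeded BAK1 within each of the 6 libraries. BCL2 exceeded BCL2L11 in 3 of 6 libraries.

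**Figure D1:**
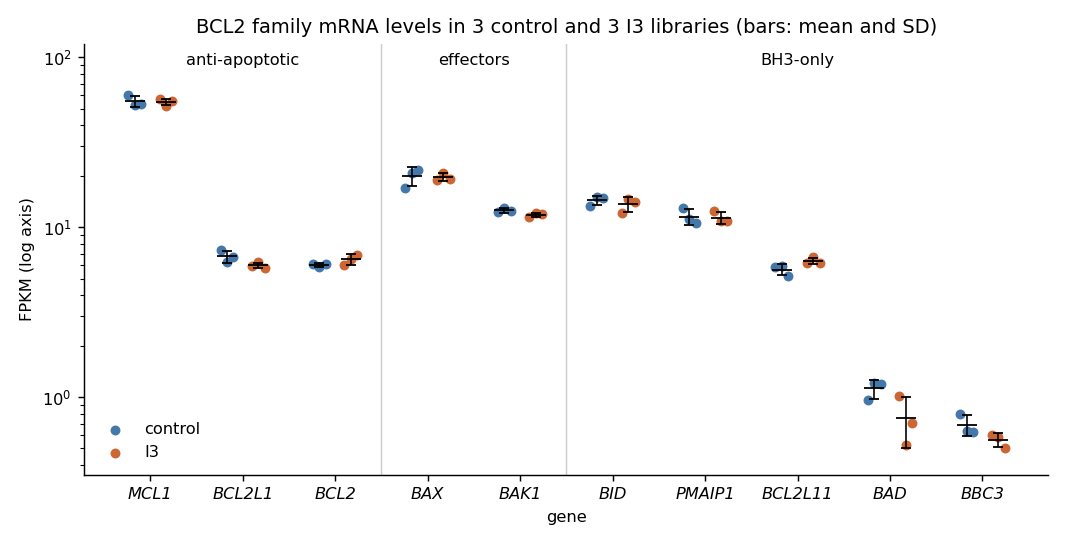
Levels of the 10 BCL2 family mRNAs in FPKM on a log axis, with 1 point per library, 3 control (blue) and 3 I3 (orange) libraries per gene, and bars for the mean and SD. MCL1 is the highest in every library (51.9 to 60.1 FPKM), BAD and BBC3 are the lowest, and the control and I3 points of most genes lie side by side.

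In limma on log2(FPKM + 0.5), no member passed the thresholds of the study's methods, an adjusted p of 0.05 and an absolute log2 fold change of 0.58. In this fit 0 of the 10 members were called, beside 0 of all 12960 tested genes (0%). The study itself used DESeq, and it reported genes lower and genes higher after I3. The count of 0 therefore belongs to limma on the deposited FPKM and not to the study's model. At an unadjusted p under 0.05, limma again found 0 of the 10 members, beside 639 of all tested genes (4.93%, with 2.08% higher and 2.85% lower after I3), and voom on reads rebuilt from the FPKM found 0 members as well. In limma on log2(FPKM + 0.5), no member reached a log2 fold change of 0.58 in size, beside 2.77% of all tested genes (1.57% higher and 1.20% lower after I3). BAD passed that size in voom on rebuilt reads, at -0.62. All 10 members exceeded the minimum mean of 0.5 FPKM, so none was left out of the fit. The adjusted p from limma was 0.998 for 9 members and 0.999 for BAX.

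The scale of log2(FPKM + 0.5) narrows the differences of genes near 0.5 FPKM. On this scale, for 9 of the 10 members the 95% interval of the log2 fold change from limma lay inside 0.58 in both directions, beside 81.6% of all tested genes. BAD was the exception. BBC3, at -0.54 to 0.22, was close to the limit, and counting error alone let its read ratio reach down to 0.615. The log2 fold changes of the members ran from -0.39 to 0.16 with a median of -0.052, beside a median of 0.011 over all tested genes. Of the members, 2 had a positive and 8 a negative value, beside 7026 positive and 5934 negative among all 12960 tested genes. The 3 control libraries lay entirely on one side of the 3 I3 libraries for 3 members, BCL2L11 (higher) and BAK1 and BBC3 (lower), beside 9.70% of all tested genes. The share in the higher direction was 5.06% and in the lower direction 4.64% of all tested genes. With 3 libraries against 3, the smallest two-sided exact permutation p is 0.1.

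**Figure D2:**
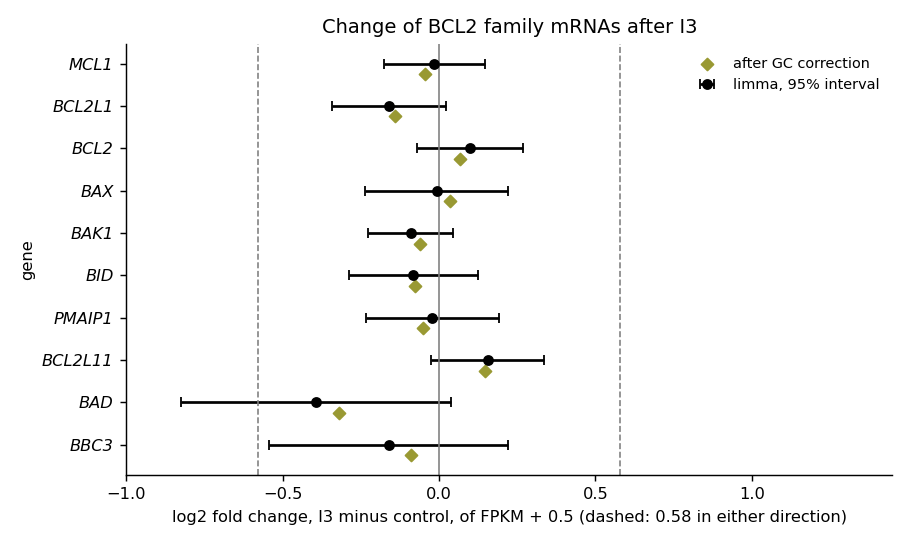
Log2 fold change (I3 minus control) of log2(FPKM + 0.5) for each member, with its 95% interval from limma (black) and the value after correction of each library for GC content (diamonds). Dashed lines mark 0.58 in either direction, and only the interval of BAD, -0.83 to 0.038, crosses one of them.

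Among the anti-apoptotic genes, MCL1 (ENSG00000143384, chromosome 1 from 150574551 to 150579738) encodes a short-lived guardian of myeloid cells. It had 60.1, 52.7 and 53.1 FPKM in control 1, 2 and 3 and 56.9, 51.9 and 55.1 FPKM in I3 1, 2 and 3. The groups overlapped, with the highest level in control 1 and the lowest in I3 2. The means were 55.3 ± 4.17 FPKM (SD, n = 3) and 54.7 ± 2.53 FPKM (SD, n = 3). On the log2 scale the groups differed by -0.015 (95% interval -0.18 to 0.15, limma unadjusted p = 0.839). With 12800 reads in control and 12859 in I3 libraries, MCL1 rests on the most reads of the family. MCL1 supplied 81.2% ± 0.586 (SD, n = 3) of the summed FPKM of the 3 anti-apoptotic genes in control and 81.4% ± 1.23 (SD, n = 3) in I3 libraries.

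BCL2 (ENSG00000171791, chromosome 18 from 63123346 to 63320128) had 6.08, 5.86 and 6.11 FPKM in control 1, 2 and 3. After I3 it had 6.00, 6.53 and 6.92 FPKM. I3 2 and I3 3 exceeded every control library, but I3 1 lay within the control range. This gave a log2 fold change of 0.099 (95% interval -0.072 to 0.27, limma unadjusted p = 0.214), which is a fold of 1.07. Without I3 3, the library with the highest BCL2 level, it was 0.054, without I3 1 it was 0.15, and it was 0.066 after GC correction.

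BCL2L1 (ENSG00000171552, chromosome 20 from 31664452 to 31723989) encodes the anti-apoptotic BCL-xL and, by alternative splicing, the pro-apoptotic BCL-xS, and the FPKM of the gene does not separate them. It had 7.33, 6.24 and 6.67 FPKM in control 1, 2 and 3 and 5.89, 6.24 and 5.81 FPKM in I3 1, 2 and 3. The groups met at a single point where control 2 and I3 2 were almost equal with 368 reads each. I3 minus control was -0.16 on the log2 scale (standard error 0.0776, 95% interval -0.34 to 0.023, limma unadjusted p = 0.0776). It stayed negative in each of 18 alternatives, between -0.21 and -0.10 (without control 1), and the lowest unadjusted p among them was 0.0421 in limma without control 2. The antisense gene ABALON shares 1424 bases of exon with BCL2L1 on the opposite strand, and its own level was at most 0.325 FPKM.

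Of the effectors, BAX (ENSG00000087088, chromosome 19 from 48954815 to 48961798) encodes a mainly cytosolic protein that moves to mitochondria. It had 17.1, 21.0 and 21.9 FPKM in control 1, 2 and 3 and 19.1, 21.0 and 19.3 FPKM in I3 1, 2 and 3. The I3 values lay inside the control range. Its log2 fold change of -0.0077 (95% interval -0.24 to 0.22, limma unadjusted p = 0.939) was the smallest of the family in size, and the sign turned in 8 of 18 alternatives.

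BAK1 (ENSG00000030110, chromosome 6 from 33572547 to 33580293) encodes BAK, which resides in the mitochondrial membrane. It had 12.3, 13.1 and 12.5 FPKM in control 1, 2 and 3 and 11.4, 12.1 and 12.0 FPKM in I3 1, 2 and 3. The groups did not overlap, although before scaling to depth control 1, the lowest control, held 480 reads and I3 3 held 481. The difference was -0.091 on the log2 scale (standard error 0.0578, limma unadjusted p = 0.158), which is a fold of 0.939 with a 95% interval of 0.855 to 1.03. After GC correction it was -0.061, and the groups then overlapped.

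Among the BH3-only genes, BCL2L11 (ENSG00000153094, chromosome 2 from 111119378 to 111168447) encodes BIM, which binds all anti-apoptotic members and the effectors. Control 1, 2 and 3 had 5.86, 5.89 and 5.16 FPKM. I3 1, 2 and 3 had 6.15, 6.65 and 6.18 FPKM, and all 3 were above all controls. The means were 5.64 ± 0.414 FPKM (SD, n = 3) and 6.33 ± 0.279 FPKM (SD, n = 3). The log2 fold change of 0.16 (standard error 0.0768, limma unadjusted p = 0.0804, exact permutation p = 0.1) is a fold of 1.11 with a 95% interval of 0.983 to 1.26. Control 3 had the lowest level, and leaving it out gave a log2 fold change of 0.099. After GC correction it was 0.15 and the groups still did not overlap. MIR4435-2HG overlaps 727 exonic bases of BCL2L11 on the opposite strand and had a log2 fold change of 0.050 (limma unadjusted p = 0.734).

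BBC3 (ENSG00000105327, chromosome 19 from 47220822 to 47232766) encodes PUMA, a target of p53. It was barely above the minimum, with 0.801, 0.636 and 0.629 FPKM in control 1, 2 and 3 and 0.60, 0.583 and 0.501 FPKM in I3 1, 2 and 3. Behind them were 45, 36 and 35 control reads against 34, 33 and 29 after I3, so that control 3 and I3 1 differed by 1 read. The ratio of 96 to 116 reads was 0.815, with an exact binomial 95% interval of 0.615 to 1.08. The intervals of read ratios cover counting error only. The log2 fold change from limma was -0.16 (95% interval -0.54 to 0.22, unadjusted p = 0.353). After GC correction it was -0.088, with groups that overlapped, and without control 1 it was -0.095. It was -0.25 with a pseudocount of 0.1 and -0.29 in voom on rebuilt reads.

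BAD (ENSG00000002330, chromosome 11 from 64269830 to 64284704) encodes a protein that phosphorylation keeps away from BCL2 and BCL-xL. It had 0.961, 1.22 and 1.20 FPKM in control 1, 2 and 3 and 1.02, 0.526 and 0.708 FPKM in I3 1, 2 and 3. I3 2 and I3 3 were the lowest of the 6 libraries, whereas I3 1 exceeded control 1. The gene rested on 29, 37 and 36 control reads and on 31, 16 and 22 reads of I3 libraries, a ratio of 0.666 with a counting interval of 0.483 to 0.913. At -0.39 (standard error 0.184, limma unadjusted p = 0.0679) BAD had the log2 fold change of largest size among the 10 members in this fit. It was -0.26 without I3 2, -0.54 without I3 1, and -0.62 in voom on rebuilt reads, which has no pseudocount on the FPKM scale. It was -0.32 after GC correction. GPR137 shares 404 bases of exon with BAD on the opposite strand and had a log2 fold change of -0.0060.

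PMAIP1 (ENSG00000141682, chromosome 18 from 59899948 to 59904306) encodes NOXA, the partner that promotes the degradation of MCL1. It had 12.9, 11.2 and 10.7 FPKM in control 1, 2 and 3 and 12.4, 10.9 and 10.9 FPKM in I3 1, 2 and 3. The first library of each group was the highest, and the groups overlapped throughout. I3 minus control was -0.021 on the log2 scale (95% interval -0.23 to 0.19, limma unadjusted p = 0.821).

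BID (ENSG00000015475, chromosome 22 from 17734138 to 17774770) links death receptors to mitochondria after cleavage by caspase-8. It had 13.4, 15.1 and 14.9 FPKM in control 1, 2 and 3 and 12.1, 14.8 and 14.1 FPKM in I3 1, 2 and 3. I3 1 was the lowest library, and without it the log2 fold change moved from -0.083 (95% interval -0.29 to 0.12, limma unadjusted p = 0.374) to -0.0027. It was -0.14 without I3 2, -0.13 without control 1 and -0.055 without control 2.

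**Figure D3:**
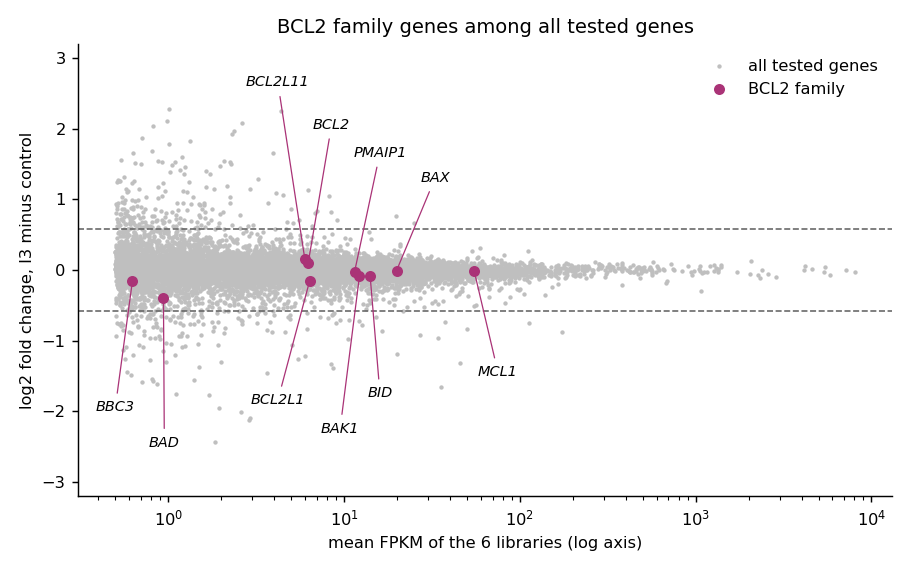
Log2 fold change (I3 minus control) of all 12960 tested genes (grey) against their mean FPKM on a log axis, with the 10 BCL2 family genes in purple and dashed lines at 0.58 in either direction. All members lie between the dashed lines, and BAD and BBC3 lie at the low levels where the grey points spread most.

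The libraries also differed in a way that crossed the treatment groups. GC-rich genes lay below their own mean over the libraries in control 1, I3 1 and I3 3, and above it in control 2, control 3 and I3 2. The Spearman correlation across 12939 genes was -0.446 to -0.232 in the former and 0.262 to 0.446 in the latter, and it carries no p because genes are no replicates. BAX, whose transcripts have a median GC content of 60.6%, was lower in each of control 1, I3 1 and I3 3 than in each of the others, by a mean of 0.20 on the log2 scale. BID (54.1% GC) was lower in the same libraries by 0.17, again without overlap. MCL1 (45.1% GC) was higher in them by 0.12, without overlap. For the other 7 members these libraries overlapped, including the most GC-rich members BAD (64.7% GC), at -0.055, and BBC3 (64.4% GC), at 0.015. PMAIP1 (45.6% GC) also overlapped, although its difference of 0.14 was larger than that of MCL1. The differences of BAX, BID, MCL1 and PMAIP1 were larger in size than their differences between I3 and control. Those of BCL2, BCL2L1, BCL2L11, BBC3, BAK1 and BAD were smaller. The libraries were split here by the sign of that correlation itself. What share of all tested genes separates in this split was not computed, so the 3 members have no background beside them. The GC correction changed the sign of the log2 fold change for BAX, to 0.034, and for no other member.

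**Figure D4:**
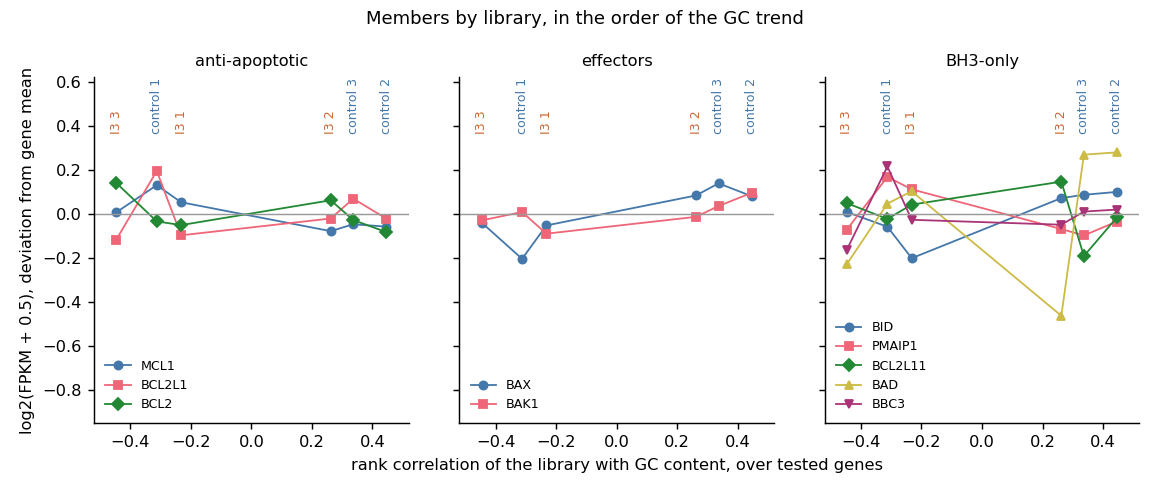
Deviation of each member from its own mean on the scale of log2(FPKM + 0.5), for the 6 libraries placed along the rank correlation of the library with GC content over all tested genes. BAX and BID are lower and MCL1 is higher in the 3 libraries with a negative correlation, and BAD spreads most, from -0.46 in I3 2 to 0.28 in control 2.

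Ratios of members within a library do not depend on a scaling factor of the whole library. The log2 ratio of BCL2 to BAX was -1.495, -1.84 and -1.84 in control 1, 2 and 3 and -1.67, -1.69 and -1.48 in I3 1, 2 and 3. The groups overlapped, and the means differed by 0.11. This difference was 0.23 without control 1, 0.047 without I3 3 and 0.036 after GC correction, and 0.057 without either control 2 or control 3. The 3 anti-apoptotic genes together had 68.1 ± 4.75 FPKM (SD, n = 3) in control and 67.1 ± 2.15 FPKM (SD, n = 3) in I3 libraries. The 7 pro-apoptotic genes together had 66.1 ± 2.42 FPKM (SD, n = 3) and 64.3 ± 1.95 FPKM (SD, n = 3). The log2 ratio of these sums was 0.040 ± 0.152 (SD, n = 3) in control and 0.062 ± 0.0901 (SD, n = 3) in I3 libraries, so the difference of 0.022 was smaller than the spread within either group. Its sign turned after GC correction and without control 2, control 3 or I3 1.

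The groups did not overlap in the log2 ratio of BCL2 to BCL2L1. It was -0.27, -0.090 and -0.13 in control 1, 2 and 3 and 0.026, 0.065 and 0.25 in I3 1, 2 and 3. BCL2L1 thus exceeded BCL2 in every control library and BCL2 exceeded BCL2L1 in every I3 library. The means were -0.16 ± 0.0947 (SD, n = 3) and 0.12 ± 0.122 (SD, n = 3). This ratio was singled out after its values had been seen, and it is given without a test. BCL2 and BCL2L1 differ in GC content (44.7% and 56.6%), and no GC-corrected value of their ratio is given. Their own log2 fold changes were 0.066 and -0.14 after GC correction, against 0.099 and -0.16 before it. Of all 45 pairs of members, the groups did not overlap for 10 pairs. Among these were the pairs of BBC3, which is near the floor, with BCL2, MCL1, BCL2L11 and PMAIP1. The pair of BAX with BAD, also near the floor, was another. Over all pairs of tested genes above 0 in every library, the groups did not overlap for 10.5%. The pairs share genes and are not independent, so no test is given. The other pair among the 10 with BCL2L1 was BCL2L1 and BCL2L11, whose log2 ratio was 0.26 ± 0.154 (SD, n = 3) in control and -0.082 ± 0.0169 (SD, n = 3) in I3 libraries.

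The remaining BCL2 family genes were taken as a list. Of 13 listed genes, 12 were measured and 8 exceeded the minimum level. None of the 8 passed an unadjusted p of 0.05 in limma, and none had groups that did not overlap. Their median log2 fold change was -0.075, beside 0.011 over all tested genes. BIK, a BH3-only gene, was the most abundant BH3-only mRNA measured here, with 17.3 ± 1.18 FPKM (SD, n = 3) in control and 15.7 ± 1.08 FPKM (SD, n = 3) in I3 libraries. It rested on 303, 305 and 266 control reads and on 253, 287 and 265 reads after I3, and its groups overlapped. Its log2 fold change was -0.14 (limma unadjusted p = 0.115). BMF, whose protein responds to loss of attachment, had 2.48, 2.28 and 2.19 FPKM in control 1, 2 and 3 and 2.22, 2.08 and 2.02 FPKM in I3 1, 2 and 3. Its log2 fold change was -0.11 (limma unadjusted p = 0.255). BCL2L12 and BCL2L13 were well expressed, with 17.3 ± 2.62 FPKM (SD, n = 3) and 10.2 ± 0.556 FPKM (SD, n = 3) in control. Their log2 fold changes were -0.050 and 0.075. BCL2L2, which encodes the anti-apoptotic BCL-w, had a log2 fold change of 0.084, and BOK, an effector-like gene, had -0.10. BCL2L12 shares 734 exonic bases with IRF3 on the opposite strand, and BCL2L2 shares 813 with the readthrough gene BCL2L2-PABPN1 on the same strand. BCL2A1, HRK, BCL2L14 and BCL2L15 were at most 0.206 FPKM in any library, and BCL2A1, an anti-apoptotic gene of maturing myeloid cells, rested on 3 reads in control and 6 in I3 libraries. BCL2L10 was not analysed here.

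BNIP3 and BNIP3L, hypoxia-responsive genes of mitochondrial clearance, differed among the controls more than between the groups. BNIP3 had 12.3 FPKM in control 1, 6.31 and 5.47 FPKM in control 2 and 3, and 5.73 to 6.03 FPKM in the I3 libraries. BNIP3L had 12.6 FPKM in control 1 and between 7.59 and 9.21 FPKM in the other 5 libraries. Control 1 was also the library with the highest levels of MCL1, BCL2L1, BBC3 and PMAIP1 and with the lowest level of BAX. Without control 1, the log2 fold changes of MCL1 and PMAIP1 were 0.046 and 0.057, with the sign opposite to that over all libraries.

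Other genes of apoptosis and its regulation were compared through lists written from general knowledge. Among apoptosome and caspase genes, 16 of 16 were tested. Of these, 1 had an unadjusted p under 0.05 in limma, beside 4.93% of all tested genes, with 0 at the adjusted p. This gene was ENDOG (ENSG00000167136, chromosome 9 from 128818474 to 128822677), which encodes the mitochondrial nuclease endonuclease G. It had 9.61, 13.2 and 13.3 FPKM in control 1, 2 and 3 and 7.42, 4.99 and 2.25 FPKM in I3 1, 2 and 3. All I3 libraries were below all controls, beside 4.64% of all tested genes, and I3 3 was the lowest. ENDOG differed by -1.33 on the log2 scale (standard error 0.354, limma adjusted p = 0.768, unadjusted p = 0.00651), a fold of 0.397. The 748 and 307 reads gave a ratio of 0.404 with a counting interval of 0.353 to 0.462. The value was negative in all 18 alternatives, which reuse the same libraries, between -1.68 and -0.91, and was -1.23 after GC correction. SPOUT1 shares 460 bases of exon with ENDOG on the opposite strand and had a log2 fold change of -0.023.

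None of the other 15 apoptosome and caspase genes passed an unadjusted p of 0.05. APAF1, the scaffold of the apoptosome, had a log2 fold change of 0.12 (limma unadjusted p = 0.129). The median of this list was 0.033. Among IAP proteins, which block caspases, and their antagonists, 5 of 11 genes were tested and 0 had an unadjusted p under 0.05 in limma, with a median of 0.013. BIRC6, a giant ubiquitin ligase, had 17.6, 18.2 and 19.8 FPKM in control 1, 2 and 3 and 20.2, 20.3 and 21.1 FPKM in I3 1, 2 and 3. Its groups did not overlap, beside 5.06% of all tested genes in the higher direction. The log2 fold change was 0.14 (limma unadjusted p = 0.0541). With single libraries left out, that limma p ran from 0.0271 without control 3 to 0.141 without I3 3, and after GC correction the log2 fold change was 0.087 (limma unadjusted p = 0.358). XIAP had a log2 fold change of 0.14 (limma unadjusted p = 0.279). DIABLO, an IAP antagonist, was at most 0.433 FPKM, and 2006 bases of its exons are shared with a second annotated gene on the same strand, so its reads are uncertain.

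Of 13 measured death receptor genes, 9 were tested and 0 had an unadjusted p under 0.05 in limma, with a median of 0.011. FADD, the adaptor of death receptors, had a log2 fold change of -0.20 (limma unadjusted p = 0.0860). TNFRSF10A and TNFRSF10B, the receptors of TRAIL, had 0.11 and 0.14. FAS was at most 0.0529 FPKM. Among regulators of BCL2 family genes, 15 of 18 were tested. E2F1 alone had an unadjusted p under 0.05 in limma, beside 4.93% of all tested genes. E2F1, a driver of S phase, had 21.5 ± 2.04 FPKM (SD, n = 3) in control and 18.4 ± 1.56 FPKM (SD, n = 3) in I3 libraries, a log2 fold change of -0.22 (limma adjusted p = 0.998, unadjusted p = 0.0436, exact permutation p = 0.1). That unadjusted limma p was above 0.05 without control 2, control 3, I3 1 or I3 3, at 0.0687 to 0.143. Over all 6 libraries it was 0.0572 after quantile normalization and 0.0689 in eBayes without trend. BAG1, a chaperone partner that binds BCL2, had a log2 fold change of -0.28 (limma unadjusted p = 0.115), with 11.3 FPKM in I3 3 against 17.0 to 18.8 FPKM in the other libraries. BAG3 had -0.16. Of 14 mitochondrial membrane partners, 14 were tested and 0 had an unadjusted p under 0.05 in limma, with a median of -0.014. The 3 with the smallest p were MFN1, PPIF and BCAP31, with log2 fold changes of 0.14, -0.15 and -0.070.

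**Figure D5:**
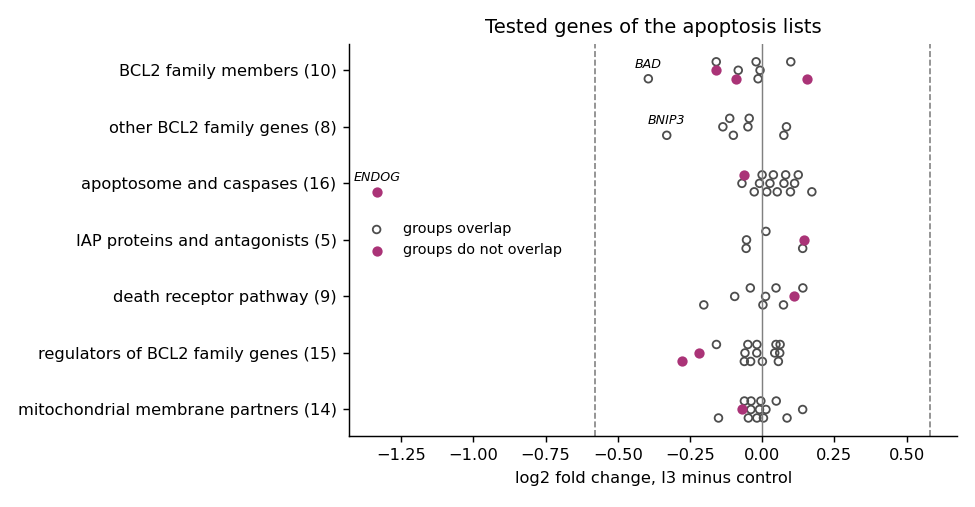
Log2 fold change (I3 minus control) of each tested gene in the BCL2 family and in 6 apoptosis lists, with the number of tested genes in brackets, filled points where the control and I3 libraries do not overlap, and dashed lines at 0.58. ENDOG at -1.33 is the only point beyond a dashed line.

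The genes most like BCL2, MCL1 and BCL2L11 over the 6 libraries were found by Pearson correlation of log2(FPKM + 0.5) among 6634 genes with a mean of at least 5 FPKM. They are a description of 6 points that share the depth and GC trend of their libraries. For MCL1 they were FGD5-AS1, FAM107B and AGGF1, with r of 0.993, 0.993 and 0.992. For BCL2 they were RNF20, GNPTAB and SLC35D1, with r of 0.985, 0.984 and 0.982. For BCL2L11 they were PAFAH1B1, TNFRSF10A and TCAM1P, with r of 0.995, 0.973 and 0.957. TNFRSF10A had 6.04, 6.09 and 5.62 FPKM in control 1, 2 and 3 and 6.22, 6.57 and 6.46 FPKM in I3 1, 2 and 3. Its groups did not overlap, beside 5.06% of all tested genes in the higher direction. It was picked for its likeness to BCL2L11, whose groups did not overlap, so this is no separate result. Its antisense neighbour TNFRSF10A-AS1, with 224 shared exonic bases on the opposite strand, had a log2 fold change of 0.34 (limma unadjusted p = 0.28). The groups of TNFRSF10A-AS1 overlapped, with 0.617 to 1.42 FPKM in control and 0.794 to 1.98 FPKM in I3 libraries.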

How the data were processed

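mRNA-seq was analysed for 3 control and 3 I3 libraries of Kasumi-1 cells, grouped by the sample labels. The authors deposited FPKM values per gene and library, with no read counts. The libraries were stranded and polyA-selected, and the submitters' processing notes name Trimmomatic, HISAT2, Cufflinks, HTSeq and hg38. No source used here gives the annotation release or says whether counting used the strand. The deposited table's name calls the compound I13, the labels and the paper I3.

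Genes were matched to GENCODE release 29 (29703 of 29810) for exon length, GC content and position, and symbols came from the Ensembl identifiers. Multiplied by exon length, the FPKM were whole multiples of a single read, within 0.1 read, for 95.8% of 26519 genes, and reads were rebuilt from them. Between 8781 and 9492 genes were at 0 in a library. Libraries of a group were not copies (chi-square per degree of freedom of at least 4.36).

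Differences were tested with limma 3.58.1 in R 4.3.3 (lmFit, eBayes with trend), two-sided, on log2(FPKM + 0.5) for 12960 genes with a mean of at least 0.5 FPKM, with Benjamini-Hochberg adjustment over all of them. A fold change on this scale understates that of a low gene. Calls required an adjusted p under 0.05 together with an absolute log2 fold change reaching 0.58. The study's methods name a model for counts. Since the deposited unit is FPKM, limma took its place, with voom on the rebuilt reads as an alternative. Exact permutation tests and exact binomial intervals came from scipy 1.17.1, tables from pandas 2.3.3 in Python 3.11.15 and plots from matplotlib 3.10.9. The fit and the GC correction (lowess, span 0.3) were tested on simulated data.

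The members and lists were chosen with earlier results of these data known. Named genes are the 10 members, the other BCL2 family genes, the 3 genes of each other list with the smallest unadjusted p (2 where fewer than 8 were tested), and the 3 nearest patterns of BCL2, MCL1 and BCL2L11. KIT, MPO, FAS, DIABLO, the markers at or near 0 and genes with overlapping exons were named after their values had been seen. Some listed genes are not reported here. Alternatives were pseudocounts of 0.1 and 1, no minimum and a minimum of 5 FPKM, TPM, median-of-ratios and quantile scaling, eBayes without trend, the replicate number as a block, GC correction, voom on the rebuilt reads (minimum mean of 10), and each library left out.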

Additional observations from a re-analysis of the deposited data

How the results depend on the processing

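The count of genes called by limma stayed at 0 in the alternatives run on 6 libraries, also with a log2 fold threshold of 1, beside 639 at an unadjusted p under 0.05. Leaving out single libraries gave 0 to 2 called genes, with 2 without I3 1, 1 without I3 2 and 1 without control 1, and none of them was a BCL2 family member. Those 639 genes became 1038 without a minimum FPKM and 302 with a minimum of 5 FPKM, which test more and fewer genes by construction. They ranged from 461 to 1417 with single libraries left out, with 1417 without control 1. The cause was not tested. The number of members at an unadjusted p under 0.05 was 0 in the main fit. It was 1 after quantile normalization (BCL2L1), beside 645 of all tested genes. With eBayes without trend it was 1 (BAD), beside 660 of all tested genes. With single libraries left out it was 0 to 1. The member was BCL2L1 without control 2, beside 461 genes, and BAD without I3 1, beside 596 genes.

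The log2 fold change of BAX turned positive with rescaling to TPM (0.0023), quantile normalization (0.0047), GC correction and the replicate block with GC correction (0.034 each), and it ranged from -0.11 to 0.059 with single libraries left out. That of MCL1 was 0.011 after quantile normalization and ranged from -0.048 to 0.046 with single libraries left out. That of PMAIP1 ranged from -0.082 to 0.057 with single libraries left out. BCL2, BCL2L1, BCL2L11, BBC3, BAK1, BID and BAD kept their direction in each alternative that gave them a value. BAD and BBC3 had no value with a minimum of 5 FPKM. The difference in the log2 ratio of anti-apoptotic to pro-apoptotic genes ranged from -0.033 to 0.11 with single libraries left out and was -0.023 after GC correction.

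The labels do not state whether the replicate numbers shared by the groups pair the libraries, and 3 libraries per group cannot settle it. The correlations of same-numbered deviations from the group means were 0.063, 0.15 and -0.024. Those between differently numbered libraries ranged from -0.17 to 0.10. With the replicate block, limma called 0 genes and found 856 genes and 0 members at an unadjusted p under 0.05, and 957 genes and 0 members with the replicate block and GC correction together. Depth limits mainly BAD, BBC3 and the genes near 0 FPKM.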
